A study of Mus musculus with 15 samples.

Results

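The genes of tumor necrosis factor (TNF), the lymphotoxins, their receptors and the TNF receptor-associated factors (TRAFs) described here are 10 of the panel's 561 genes. They are Tnf, Lta, Ltb, Ltbr, Tnfrsf1b, Fas, Traf1, Traf2, Traf3 and Traf5. Traf4 and Traf6 are also on the panel and were counted in a list of signaling genes. The 10 genes were taken by gene symbol, with earlier results of these data known, and all 10 are rows of the deposited count table. Of these, 9 averaged 20 or more counts per sample and were tested, and Traf3 did not. Ltb was 3.99-fold and 4.32-fold higher, and Tnfrsf1b 6.03-fold and 6.42-fold lower, after scaling to housekeeping genes, with extracellular vesicles (EVs) from mice 3 and 7 days after 9 Gy than with sham EVs. The log2 changes of the other tested members against sham EVs lay between -0.89 and 0.84.

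TNF and the lymphotoxins are ligands of the TNF superfamily. TNF signals through TNF receptor 1 and TNF receptor 2 (the product of Tnfrsf1b), secreted lymphotoxin α binds the same receptors, and lymphotoxin α joined to lymphotoxin β at the cell surface binds the lymphotoxin β receptor. The receptors recruit TRAF adaptors, which link them to the NF-κB and MAP kinase pathways, while Fas carries a death domain and binds FADD. In macrophages, LPS acts through Toll-like receptor 4 and makes TNF a main early secreted cytokine.

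Messenger RNA was counted with the nanoString nCounter Mouse Immunology panel, which reads color-coded probes on each mRNA without amplification, in RAW 264.7 cells, a transformed macrophage line of male BALB/c mouse origin. All cells received LPS together with plasma EVs of young female C57BL/6J mice for a day. The donors were sham mice, or mice 3 or 7 days after whole body irradiation (WBIR) with 2 Gy or 9 Gy, which gave 5 groups of 3 samples, sham EVs, 2 Gy day 3 EVs, 2 Gy day 7 EVs, 9 Gy day 3 EVs and 9 Gy day 7 EVs. No group lacked LPS or EVs, so the sham EV group served as the control for each irradiated group and its 3 samples enter every such comparison, and the labels give the sham mice no day. A value given for day 3 after 9 Gy is that of cells treated with EVs isolated then. The labels and the study's methods give different EV numbers and lysis reagents. The methods say that samples were run in triplicate, and neither source says whether the 3 samples of a group were separate cultures or separate EV pools. The p-values therefore measure the spread between these samples, which may be technical.

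The day label of replicates 1 and 2 of 9 Gy day 3 reads 7, against their titles, by which they were kept at day 3. In a chi-square comparison of counts, the closest of all pairs of samples joined the second of these to 9 Gy day 7 replicate 1 (1.65 per degree of freedom), while replicates 1 and 2 stood at 24.5 and 21.8 from 9 Gy day 3 replicate 3, a measure that shrinks with low totals. Replicate 3 of either day was also closer to the other day's replicate 3 (5.71) than to its own group, that of day 7 standing at 133 and 192 from its group, so the closeness also followed the replicate number. Total counts were 43176 to 87899 in the 9 Gy day 3 samples and 453178 to 837995 in the other 12 samples. The members with low counts were therefore the least precise on day 3 after 9 Gy, where Lta, Ltbr, Traf2, Traf3 and Traf5 had counts of 1 to 17 per sample. All 7 macrophage markers on the panel passed the filter, and their summed normalized counts were 5196 to 8214 in the sham group, 2584 to 3917 on day 3 after 9 Gy and 2527 to 3618 on day 7 after 9 Gy. The markers did not move as a set, since with the housekeeping scaling, on both 9 Gy days, Cd14, Emr1, Fcgr1 and Itgam were lower than with sham EVs, Csf1r was higher (log2 change 2.29 and 1.87, adjusted p = 8.85e-06 and 1.44e-05, edgeR), and Ptprc and Tlr4 did not pass (log2 changes of -0.17 to -0.0036). Of the lymphocyte markers, 2 of 9 T cell genes, 2 of 7 B cell genes and 0 of 5 NK cell genes passed it, and the median count of a T cell marker was 10 to 12 in the groups other than 9 Gy day 3. Both tested T cell markers, Cd8a (log2 change -0.89 and -0.82) and Lck (-1.05 and -0.71), were lower on both 9 Gy days, and the B cell marker Ms4a1 on day 7 (-0.71). The summed normalized counts of the 9 T cell markers were 195 to 251 in the sham samples and 98.3 to 160 in the 9 Gy samples. The part of the markers in the results was not tested. In RNA from whole cultures, fewer expressing cells and less RNA per cell cannot be told apart.

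**Figure D1:**
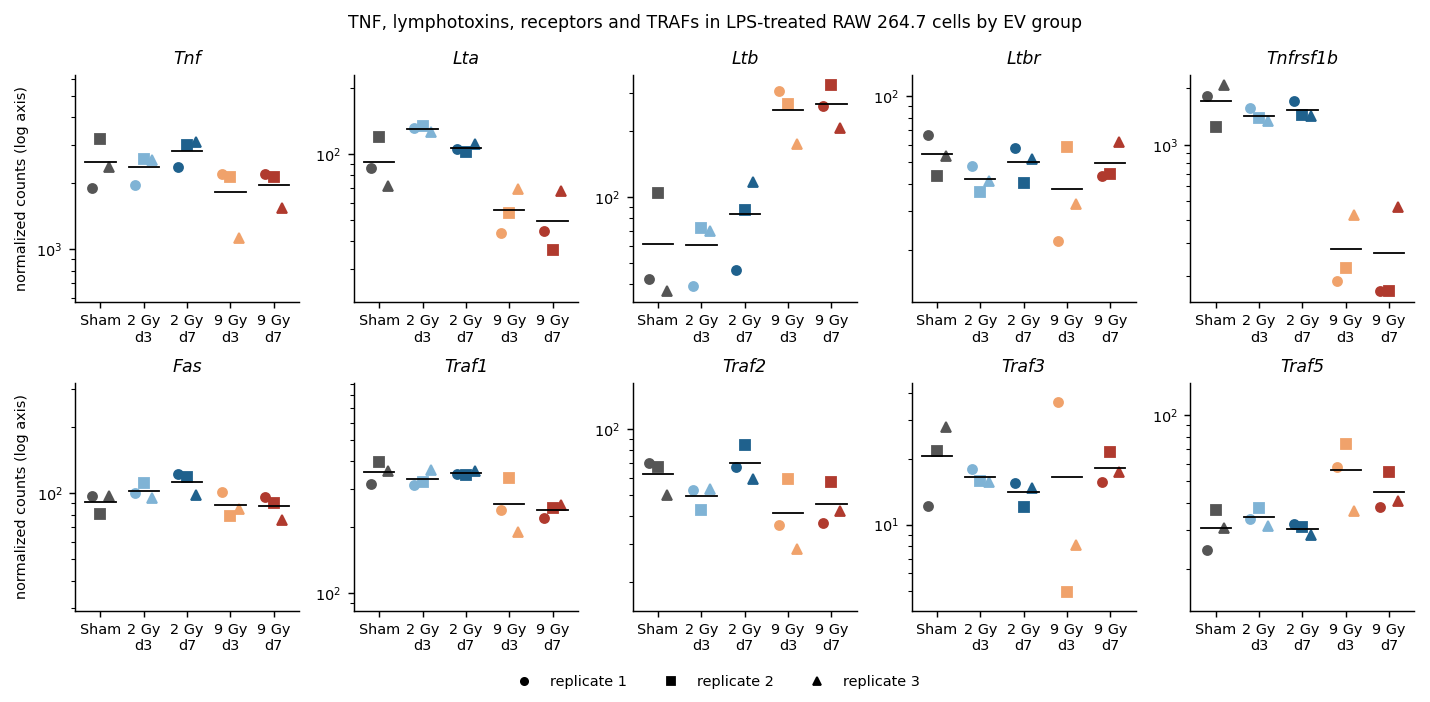
Normalized counts of the 10 genes in each of the 15 samples, on a log axis with its own range in each panel. Points are single samples (circle, square and triangle for replicates 1, 2 and 3) and bars are group means. Ltb is higher and Tnfrsf1b lower in all 6 samples with 9 Gy EVs than in the other 9 samples.

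Of the ligands, Tnf, Ltb and Lta are neighbors on mouse chromosome 17, with Tnf between Ltb and Lta. The 250 bases before each start site are shown for these adjacent genes and for the receptor gene Tnfrsf1b on chromosome 4, because Ltb and Tnfrsf1b moved most and NF-κB is a well known factor at the Tnf locus. The sequences are those of RefSeq in build GRCm38.p6, read 5′ to 3′ on the strand of the gene, and capitals mark every match, on either strand, to GGNNTTTCC, a loose form of a 9-base NF-κB motif, and to TATAAA, the TATA box. The window of Tnfrsf1b holds neither.
Ltb (chr17:35194257-35194506, plus strand): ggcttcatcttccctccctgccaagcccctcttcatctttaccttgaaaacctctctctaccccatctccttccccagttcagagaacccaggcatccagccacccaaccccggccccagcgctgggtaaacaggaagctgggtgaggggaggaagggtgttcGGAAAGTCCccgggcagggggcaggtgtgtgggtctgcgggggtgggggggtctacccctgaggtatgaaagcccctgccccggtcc
Tnf (chr17:35202008-35202257, minus strand): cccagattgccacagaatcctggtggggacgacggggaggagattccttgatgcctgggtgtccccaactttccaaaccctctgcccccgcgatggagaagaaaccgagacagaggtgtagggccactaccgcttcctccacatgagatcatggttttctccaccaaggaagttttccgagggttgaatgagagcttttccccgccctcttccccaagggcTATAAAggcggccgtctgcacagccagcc
Lta (chr17:35205352-35205601, minus strand): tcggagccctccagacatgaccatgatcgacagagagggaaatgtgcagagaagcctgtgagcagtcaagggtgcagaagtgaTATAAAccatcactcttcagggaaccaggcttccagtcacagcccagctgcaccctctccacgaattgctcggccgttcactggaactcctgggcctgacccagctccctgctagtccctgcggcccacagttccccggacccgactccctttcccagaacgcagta
Tnfrsf1b (chr4:145246871-145247120, minus strand): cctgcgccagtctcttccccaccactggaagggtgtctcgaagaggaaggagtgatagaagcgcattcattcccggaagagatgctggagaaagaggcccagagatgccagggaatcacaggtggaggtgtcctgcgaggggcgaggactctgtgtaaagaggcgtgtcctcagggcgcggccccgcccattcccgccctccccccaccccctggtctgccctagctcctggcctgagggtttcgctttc
GGNNTTTCC was in 4.93% of 32851 promoter windows of this length and, of the 10 members, in those of Ltb and Traf3. GGACTTTCC, the stricter form, whose matches are all matches of the loose form too, was in 93 windows (0.283%), and among the members in that of Ltb, on the minus strand, 87 bases before the start. TATAAA was in 12.4% of windows and, among the members, in those of Tnf (29 bases before the start) and Lta (167 bases). These matches describe the letters only, and binding was not measured.

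Tnf, the inflammatory cytokine made by LPS-treated macrophages, had raw counts of 1723 to 3653 in the samples outside the 9 Gy day 3 group and 279 to 437 in it. After scaling to the 14 housekeeping genes of the panel (normalized counts), replicates 1 to 3 held 1911, 3199 and 2376 with sham EVs. The 2 Gy samples held 1962, 2576 and 2559.8 on day 3 and 2369, 2979 and 3103 on day 7, and the 9 Gy samples 2213, 2149 and 1131 on day 3 and 2206, 2141 and 1541 on day 7. The highest values lay in the sham and 2 Gy samples and the lowest in replicate 3 of both 9 Gy days, while replicates 1 and 2 of both 9 Gy days fell inside the sham range. The log2 change against sham EVs was -0.45 (standard error 0.26, adjusted p = 0.152) for 9 Gy day 3 EVs and -0.35 (0.25, adjusted p = 0.248) for 9 Gy day 7 EVs in the quasi-likelihood test of edgeR, adjusted by Benjamini-Hochberg over the 269 genes tested. The median changes of all tested genes were -0.46 and -0.45. The day 3 value of Tnf depended on the day labels and on the scale. It was -1.14 with the 2 samples of conflicting day label left out, where replicate 3 alone stands for the group. With counts under 20 set to 20 it passed at -0.80 (adjusted p = 0.0129, edgeR). That setting alters no Tnf count, but it raises low counts of housekeeping genes before the scale is taken. The day 7 value turned to 0.80 (adjusted p = 0.0247, edgeR) with total-count scaling.

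Ltb, which encodes the membrane-anchoring lymphotoxin β chain, was the member that rose most. Its normalized counts were 42.1, 104 and 37.0 in the sham group, 39.3, 71.9 and 69.7 on day 3 after 2 Gy, and 46.3, 87.4 and 117 on day 7 after 2 Gy. With 9 Gy EVs they were 306, 266 and 174 on day 3 and 261, 325 and 208 on day 7. Every sample with 9 Gy EVs was above every sample with sham or 2 Gy EVs, the closest being 174 against 117, and replicate 3 was the lowest of each 9 Gy group. The raw counts of Ltb were 42 to 54 in the 9 Gy day 3 samples, for all their lower totals, and 38 to 110 in the sham samples. The group means were 61.0 ± 37.2 in the sham group, 249 ± 67.3 on day 3 after 9 Gy and 265 ± 58.9 on day 7 after 9 Gy (SD, n = 3 each). The log2 change against sham EVs was 2.00 (standard error 0.44, adjusted p = 0.00194, edgeR) on day 3 and 2.11 (0.41, adjusted p = 0.000552, edgeR) on day 7. With the samples of conflicting day label left out, which leaves 1 sample in the 9 Gy day 3 group that is assumed to vary like the other groups, the day 3 change was 1.51 (adjusted p = 0.0895, edgeR). With each sample left out in turn it ran from 1.73 to 2.63 on day 3 and from 1.84 to 2.74 on day 7, both highest without sham replicate 2, which had the most Ltb of its group, and it passed each time. The size depended on the scaling, at 2.41 and 2.67 with TMM scaling and 3.06 and 3.26 with total-count scaling.

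Lta, which encodes lymphotoxin α, moved the other way from Ltb. Its normalized counts were 86.5, 119 and 71.2 in the sham group, 132, 134 and 127 on day 3 after 2 Gy, and 105, 102 and 112 on day 7 after 2 Gy. They were 43.7, 54.1 and 68.9 on day 3 after 9 Gy (raw counts 6, 11 and 17) and 44.7, 36.5 and 67.6 on day 7 after 9 Gy (raw counts 74, 58 and 117). All 6 samples with 9 Gy EVs lay below all 9 others, though the highest of them, at 68.9, was close to the lowest sham sample, at 71.2. The change passed the test for 9 Gy day 7 EVs, at -0.89 on the log2 scale (standard error 0.23, adjusted p = 0.00428, edgeR), and not for 9 Gy day 3 EVs, at -0.69 (0.29, adjusted p = 0.0593, edgeR). The day 3 change passed in 3 of the 15 fits with 1 sample left out (adjusted p from 0.0284 to 0.0422, edgeR) and without replicate 3 of both 9 Gy groups (-0.89, adjusted p = 0.0244), and was -0.42 (adjusted p = 0.481, edgeR) with the samples of conflicting day label left out. The day 7 decrease rests on the housekeeping scaling, since it was -0.34 (adjusted p = 0.236, edgeR) with TMM scaling and turned to 0.19 with total-count scaling. With 2 Gy day 3 EVs all 3 samples were above all sham samples, where 13% of all genes did not overlap, and the log2 change of 0.50 had an adjusted p of 0.998 in edgeR.

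Tnfrsf1b, which encodes TNF receptor 2, was the member that fell most. Its normalized counts were 1824, 1244 and 2081 in the sham group, 1562, 1380.2 and 1338 on day 3 after 2 Gy, and 1706, 1437 and 1423 on day 7 after 2 Gy. With 9 Gy EVs they were 189, 221 and 426 on day 3 and 168, 166 and 468 on day 7. The lowest sample outside the 9 Gy groups, sham replicate 2, was above the highest in them, replicate 3 of 9 Gy day 7, and in both 9 Gy groups replicate 3 stood well above replicates 1 and 2. The means were 1716 ± 429 in the sham group, 279 ± 128 on day 3 after 9 Gy and 267 ± 174 on day 7 after 9 Gy (SD, n = 3 each), and the log2 changes were -2.59 (standard error 0.40, adjusted p = 0.000134, edgeR) and -2.68 (0.39, adjusted p = 5.4e-05, edgeR). Without replicate 3 of both 9 Gy groups the decreases were larger, at -3.05 and -3.36 (adjusted p = 2.1e-07 and 4.12e-08, edgeR). The day 3 change was -2.01 (adjusted p = 0.0222, edgeR) with the samples of conflicting day label left out. Under the other scalings, tests, filters and treatments of the day labels, Tnfrsf1b was lower in both comparisons at an adjusted p under 0.05 each time, by the least with total-count scaling (-1.61 and -1.66).

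**Figure D2:**
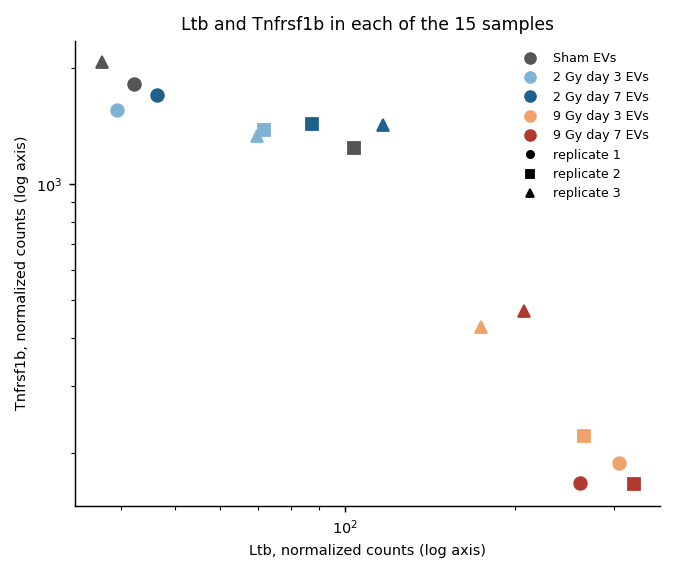
Normalized counts of Ltb against Tnfrsf1b in each of the 15 samples, both on log axes, with color for the EV group and shape for the replicate. The 6 samples with 9 Gy EVs lie at high Ltb (174 to 325) and low Tnfrsf1b (166 to 468), and replicate 3 of both days lies nearest to the other groups.

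The samples within a group also differed in Ltb and Tnfrsf1b in opposite order. In 5 of 5 groups the sample with the lowest Ltb had the highest Tnfrsf1b, and in 4 of 5 the sample with the highest Ltb had the lowest Tnfrsf1b, 2 Gy day 3 being the exception. Among the sham samples, replicate 2 had the most Ltb and the least Tnfrsf1b. This order is a description of 3 samples per group, whose values share 1 scaling factor per sample, and no test was made of it.

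The remaining receptors showed smaller differences. Ltbr, the receptor of membrane lymphotoxin, had normalized counts of 43.4 to 66.5 in the sham group, 36.8 to 58.1 with 2 Gy EVs, 21.8, 59.0 and 32.4 on day 3 after 9 Gy (raw counts 3, 12 and 8) and 43.5 to 61.9 on day 7 after 9 Gy. The 9 Gy samples overlapped the sham samples, and the log2 change against sham EVs was -0.48 (standard error 0.33, adjusted p = 0.233, edgeR) on day 3 and -0.12 (0.23, adjusted p = 0.655, edgeR) on day 7 after 9 Gy. It turned to 0.62 (adjusted p = 0.0249, edgeR) on day 3 with counts under 20 set to 20, and to 0.95 (adjusted p = 0.00404, edgeR) on day 7 with total-count scaling. Fas, the receptor of Fas ligand, had similar normalized counts in the 9 Gy and sham groups with the housekeeping scaling, at 80.3 to 97.6 in the sham group, 95.4 to 112 on day 3 after 2 Gy, 97.9 to 123 on day 7 after 2 Gy, 78.7 to 102 on day 3 after 9 Gy and 75.7 to 96.0 on day 7 after 9 Gy. Its log2 change was -0.07 on both 9 Gy days (95% interval -0.43 to 0.30 on day 3 and -0.37 to 0.23 on day 7), but 0.51 (adjusted p = 0.0143, edgeR) on day 7 with TMM scaling, and 0.95 and 1.05 (adjusted p = 0.00476 and 0.000378, edgeR) with total-count scaling. All 3 samples with 2 Gy day 7 EVs were above the highest sham sample, at 123, 119 and 97.9 against 97.6, in a comparison where 4.09% of all genes did not overlap, with a log2 change of 0.31 that did not pass the test (adjusted p = 0.944, edgeR).

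Among the TRAFs, Traf1, an adaptor that NF-κB signaling is known to induce, held 316, 396 and 362 normalized counts with sham EVs. It held 312 to 364 with 2 Gy EVs of either day, 240.2, 334 and 191 on day 3 after 9 Gy and 219, 245 and 252 on day 7 after 9 Gy. The 9 Gy day 7 samples were all below the sham samples, while replicate 2 of 9 Gy day 3 lay inside the sham range. The log2 changes of -0.49 (standard error 0.18, adjusted p = 0.0321, edgeR) and -0.58 (0.16, adjusted p = 0.00764, edgeR) passed the test, but they were close to the median of all tested genes, were -0.05 and -0.02 with TMM scaling, and turned to 0.55 and 0.52 with total-count scaling. The day 3 change also lost significance when only the sham and 9 Gy day 3 groups were fitted (adjusted p = 0.133, edgeR) and without 9 Gy day 3 replicate 1 or 3 or sham replicate 2 or 3 (adjusted p of 0.0813, 0.151, 0.0866 and 0.0688 in edgeR).

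Traf5, which acts with lymphotoxin β receptor, CD40 and other receptors of the family, was the other member that rose. Its normalized counts were 24.4, 36.8 and 30.5 in the sham group, 28.4 to 37.6 with 2 Gy EVs of either day, 58.2, 73.8 and 36.5 on day 3 after 9 Gy (raw counts 8, 15 and 9) and 38.0, 55.3 and 40.5 on day 7 after 9 Gy (raw counts 63, 88 and 70). All 3 samples of 9 Gy day 7 were above the sham samples, and on day 3 replicate 3 was just below the highest sham sample. The log2 changes were 0.84 (standard error 0.28, adjusted p = 0.0223, edgeR) on day 3 and 0.53 (0.21, adjusted p = 0.0444, edgeR) on day 7, and they stayed positive under each scaling. Both calls were marginal. With each of the 15 samples left out in turn, the day 3 call was lost in 3 cases and the day 7 call in 9, and both were lost with no filter (adjusted p = 0.0527 and 0.0631, edgeR) and with only the compared groups fitted (0.0665 and 0.0896). The day 3 change was 0.55 (adjusted p = 0.282, edgeR) without 9 Gy day 3 replicate 2 and the day 7 change 0.35 (adjusted p = 0.189, edgeR) without 9 Gy day 7 replicate 2. With the samples of conflicting day label left out, the day 3 change was 0.25 (adjusted p = 0.757, edgeR).

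Traf2, the adaptor that TNF receptor complexes recruit together with inhibitor of apoptosis proteins, had 49.9 to 69.9 normalized counts in the sham group, 42.6 to 53.2 on day 3 after 2 Gy, 59.0 to 84.8 on day 7 after 2 Gy, 28.4 to 59.0 on day 3 after 9 Gy and 37.4 to 57.2 on day 7 after 9 Gy. Each irradiated group overlapped the sham group, and the log2 changes against sham EVs of -0.60 and -0.45 after 9 Gy did not pass the test (adjusted p = 0.119 and 0.0972, edgeR). They passed without replicate 2 of the 9 Gy group compared, at -0.98 (adjusted p = 0.0434, edgeR) on day 3 and -0.64 (adjusted p = 0.0369, edgeR) on day 7, and the day 7 change turned to 0.66 (adjusted p = 0.0338, edgeR) with total-count scaling. Traf3, a brake on the noncanonical NF-κB pathway, had raw counts of 11 to 34 per sample outside the 9 Gy day 3 group and of 5, 1 and 2 in it. Fitted without the filter on low counts, its log2 change was -0.60 (standard error 0.54, adjusted p = 0.512, edgeR) on day 3 and -0.21 (0.29, adjusted p = 0.563, edgeR) on day 7 after 9 Gy, so that a difference of the size seen for Ltb or Tnfrsf1b lay outside its 95% interval on day 7 (-0.77 to 0.36).

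Counted together, 0 of the 9 tested members passed an adjusted p under 0.05 in edgeR on day 3 after 2 Gy and 0 on day 7, where 0% of all 269 genes did. Without adjustment, p was under 0.05 for 1 member (Lta) and 2.6% of all genes on day 3, and 0 members and 0.372% on day 7. With 9 Gy day 3 EVs 4 members passed, against 52.4% of all genes, of which Ltb and Traf5 were higher (11.2% of all genes) and Tnfrsf1b and Traf1 lower (41.3%). With 9 Gy day 7 EVs 5 members passed, against 61% of all genes, of which Ltb and Traf5 were higher (11.9%) and Lta, Tnfrsf1b and Traf1 lower (49.1%). The shares of the members that passed were near those of the panel. The median log2 change of the tested members was -0.48 and -0.35 on days 3 and 7 after 9 Gy, and that of all tested genes -0.46 and -0.45. Groups did not overlap for Lta, Ltb and Tnfrsf1b on day 3, where 55.8% of all genes did not overlap, and for these and Traf1 and Traf5 on day 7, where 61.7% did not.

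**Figure D3:**
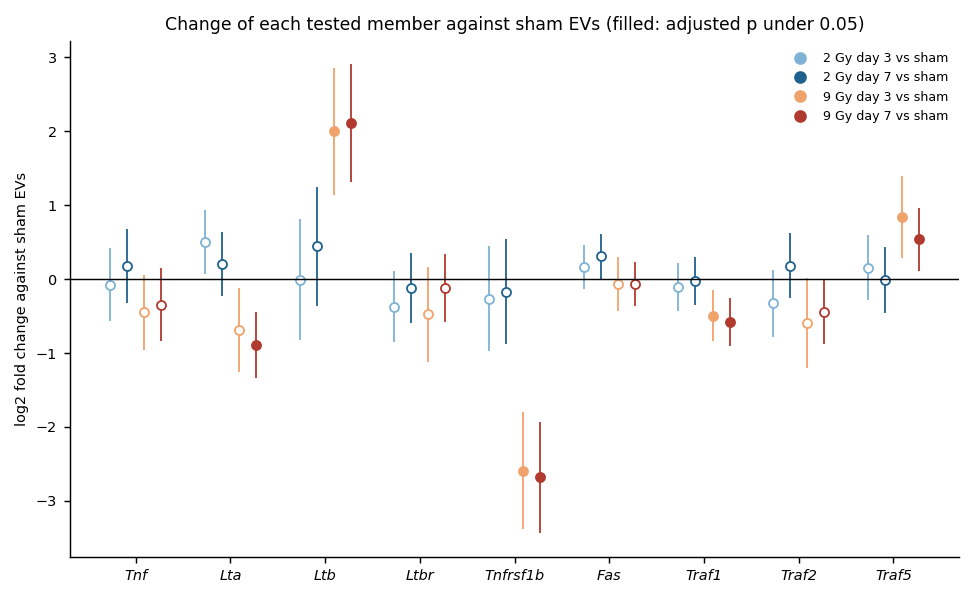
Log2 fold change of each of the 9 tested members in each irradiated group against sham EVs, with bars for the 95% interval of the edgeR fit and filled points for an adjusted p under 0.05. All 4 comparisons share the 3 sham samples. Ltb (2.00 and 2.11) and Tnfrsf1b (-2.59 and -2.68) with 9 Gy EVs lie farthest from 0, while all points for 2 Gy EVs are open.

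Set against each other over both days, the 6 samples with 9 Gy EVs differed from the 6 with 2 Gy EVs in 7 of the 9 tested members, where 67.7% of all genes differed (edgeR, adjusted p under 0.05). Ltb was higher by 1.84 (standard error 0.29, adjusted p = 9.41e-05, edgeR) and Traf5 by 0.62 (0.18, adjusted p = 0.00661, edgeR) on the log2 scale, a direction shared by 15.6% of all genes. The Traf5 call was lost with the samples of conflicting day label left out (0.32, adjusted p = 0.33, edgeR). Tnfrsf1b was lower, with a log2 change of -2.42 (0.28, adjusted p = 3.85e-06, edgeR), as was Lta, with -1.14 (0.18, adjusted p = 8.56e-05, edgeR), and 52% of all genes were lower. The decrease of Lta came to -0.03 with total-count scaling. Traf1, Tnf and Fas passed with log2 changes of -0.47, -0.45 and -0.30 (adjusted p = 0.00335, 0.0404 and 0.0372, edgeR), beside a median of -0.45 over all tested genes, and all 3 turned positive with total-count scaling (0.67, 0.72 and 0.84). The Tnf and Fas calls were each lost in 6 of the 15 fits with 1 sample left out (adjusted p up to 0.0816 and 0.0963, edgeR) and with no filter (0.0529 and 0.0827), and that of Fas also with DESeq2 (adjusted p = 0.0581), limma voom (0.0544) and the samples of conflicting day label left out (0.0912). Traf2 did not pass (-0.45, adjusted p = 0.0509, edgeR), but it did with the replicate number as a block over all groups, where 8 members and 68.8% of all genes passed. Groups did not overlap for Lta, Ltb and Tnfrsf1b, as for 43.9% of all genes.

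These p-values treat the 6 samples of a dose as independent, although samples of the same replicate number deviated together between its days, and within a day no number occurs more than once per dose. The dose difference was present on each day for the members that moved most. For Ltb it was 2.01 (adjusted p = 0.00184, edgeR) between the day 3 groups and 1.67 (adjusted p = 0.00259) between the day 7 groups, for Tnfrsf1b -2.33 (adjusted p = 0.000309) and -2.51 (adjusted p = 9.02e-05), and for Lta -1.19 (adjusted p = 0.00362) and -1.09 (adjusted p = 0.000966). Tnf passed on neither day alone, at -0.37 (adjusted p = 0.231) on day 3 and -0.52 (adjusted p = 0.0945, edgeR) on day 7. Between the day 3 groups the calls of Traf1 (-0.39, adjusted p = 0.0844), Fas (-0.23, adjusted p = 0.316) and Traf5 (0.68, adjusted p = 0.0544, edgeR) were lost too. Between the day 7 groups these 3 passed and Traf2 passed as well (-0.63, adjusted p = 0.0257, edgeR). In all, 3 members and 49.4% of all tested genes passed between the day 3 groups, and 7 members and 56.5% between the day 7 groups. The Tnf difference was -0.25 (adjusted p = 0.136, edgeR) without replicate 3 of both 9 Gy groups, and those of Fas -0.24 (adjusted p = 0.139) and Traf1 -0.40 (adjusted p = 0.00926).

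**Figure D4:**
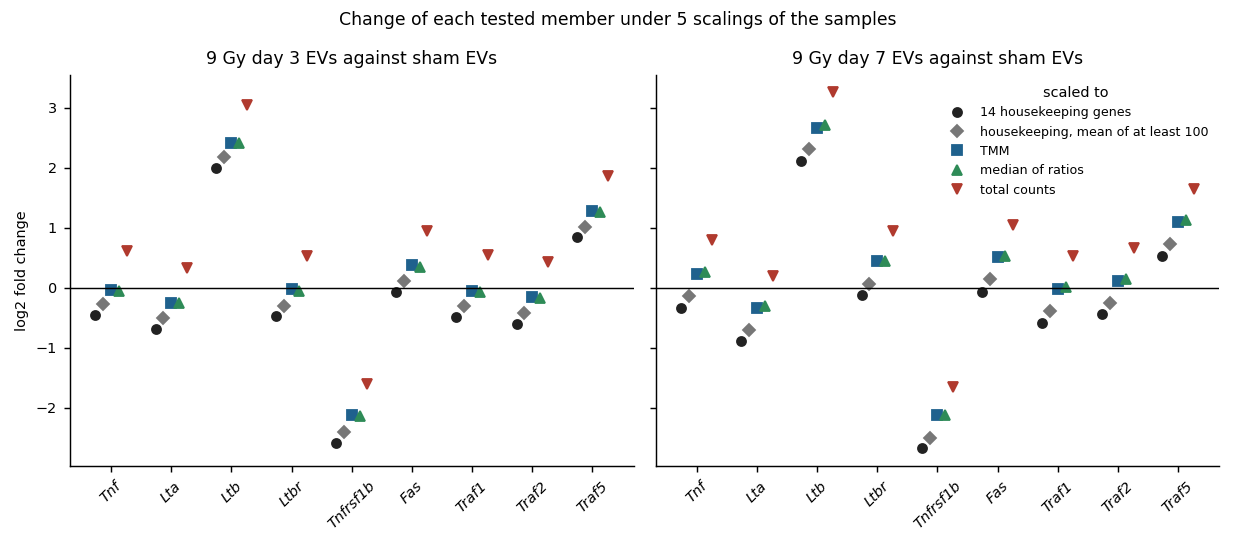
Log2 fold change of each tested member with 9 Gy day 3 EVs (left) and 9 Gy day 7 EVs (right) against sham EVs under 5 scalings of the samples. Ltb and Traf5 are positive and Tnfrsf1b is negative under each scaling, while Tnf, Lta, Ltbr, Fas, Traf1 and Traf2 turn from negative with the housekeeping scaling to positive with total-count scaling on both days.

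The direction of the small changes depended on how the samples were scaled. The median log2 change of all tested genes against sham EVs was -0.46 on day 3 and -0.45 on day 7 after 9 Gy with the housekeeping scaling, -0.03 and 0.11 with TMM scaling, and 0.56 and 0.65 with total-count scaling. The members that passed on day 7 numbered 2 higher and 3 lower with the housekeeping scaling, 3 higher and 1 lower with TMM scaling, and 7 higher and 1 lower with total-count scaling, while all tested genes split 32 to 132, 80 to 68 and 143 to 31. On day 3 the members split 2 to 2, 2 to 1 and 4 to 1, and all tested genes 30 to 111, 58 to 61 and 121 to 33. Against 2 Gy EVs the members split 2 to 5, 2 to 2 and 7 to 1, and all tested genes 42 to 140, 85 to 84 and 168 to 36. Tnfrsf1b was the lone member on the lower side with total-count scaling in each of these comparisons.

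A ratio of counts of 2 genes within a sample does not depend on the scaling. The 6 ratios given here were chosen with the changes of these genes known, and they are a description of the same counts, with no test. Tnf counts were 1.05 to 2.57 times those of Tnfrsf1b in the sham samples, 1.26 to 2.18 times in the 2 Gy samples and 2.66 to 13.1 times in the 9 Gy samples, the lowest of the last being replicate 3 of each day. The mean log2 ratio was higher by 2.09 with 9 Gy EVs than with 2 Gy EVs, or 4.26-fold. Ltb over Tnf, the neighboring ligand genes, was higher by 2.37, or 5.18-fold, with 6.49 to 8.44 Tnf counts per Ltb count in the 9 Gy samples against 26.6 to 51.2 in the 2 Gy samples and 30.8 to 64.2 in the sham samples. Among the 9 Gy samples replicate 3 was the lowest on day 3, at 6.49, and lay between the others on day 7, at 7.43.

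Ltbr over Ltb, receptor over ligand chain, differed by -2.04 on the log2 scale, and all 6 samples with 9 Gy EVs were below the others. Lta over Tnf was lower, with a mean log2 difference of -0.73, but overlapped. Its 9 Gy values split by replicate number, with 39.7 to 58.7 Tnf counts per Lta count in replicates 1 and 2 of both days and 16.4 and 22.8 in replicate 3, against 14.9 to 29.2 in the 2 Gy samples. Traf1 over Traf2 differed by -0.01 and Traf3 over Traf2 by 0.39 in the mean.

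**Figure D5:**
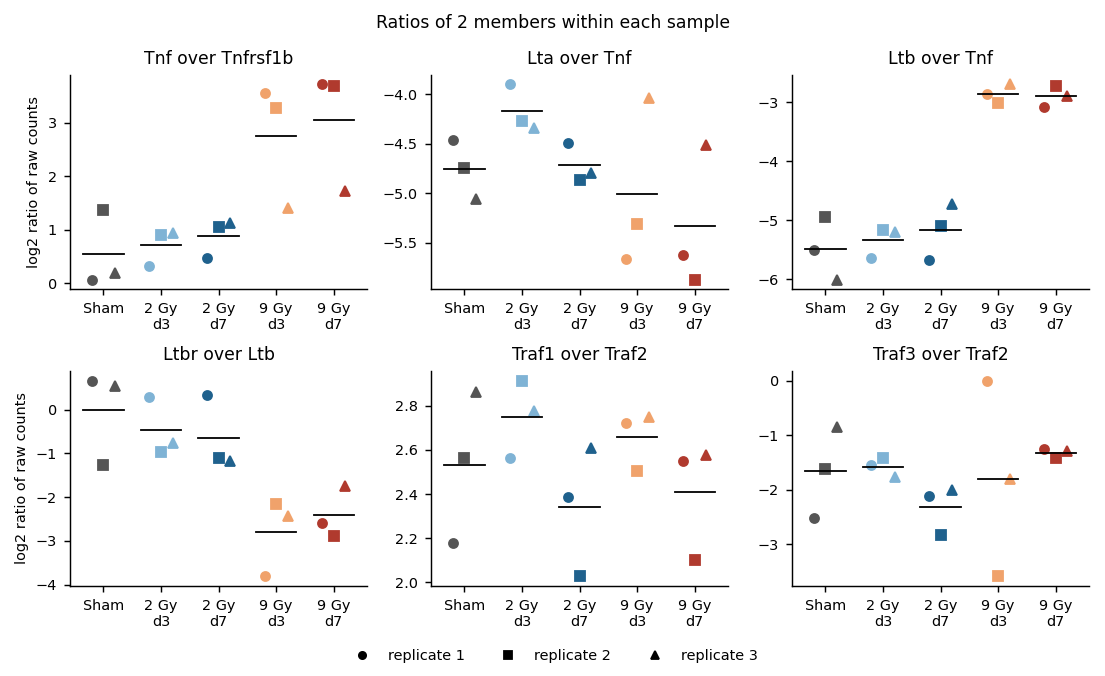
Log2 ratio of raw counts of 2 members within each sample, by EV group, with points for single samples (shape for the replicate) and bars for group means. For Tnf over Tnfrsf1b and Ltb over Tnf all 6 samples with 9 Gy EVs lie above the other 9 samples, and for Ltbr over Ltb they lie below them.

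The day of EV isolation made less difference. Between day 7 and day 3, 0 of the 9 tested members differed after 2 Gy and 0 after 9 Gy (edgeR, adjusted p under 0.05, 0% of all genes in both), and 0 differed in the interaction of dose and day (0% of all genes). Without adjustment, edgeR gave a p under 0.05 for 1 member after 2 Gy (Traf2, log2 change 0.51, 1.49% of all genes), 0 after 9 Gy (2.23%) and 0 in the interaction (1.49%). Samples with the same replicate number deviated together between both days of a dose, and with the number as a block in a fit of the 2 Gy groups alone, Tnf was higher on day 7 by 0.25 (standard error 0.05, adjusted p = 0.0158, edgeR), each replicate being higher on day 7 than the same number on day 3. It was the 1 member that passed in that fit, where 10% of all genes did. For Ltb and Tnfrsf1b the 9 Gy days differed by 0.11 (95% interval -0.69 to 0.91) and -0.09 (-0.86 to 0.68). This comparison depends on the disputed labels, since with those 2 samples moved to day 7 the differences were 0.64 and -0.78 (adjusted p = 0.674 and 0.499, edgeR), and leaving out 1 sample moved that of Tnfrsf1b to between -0.77 and 0.37.

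The other genes of the pathway were described by list. Of 15 other TNF superfamily ligands listed, 10 were on the panel and 0 passed the filter, their counts being 2 to 22 per sample outside the 9 Gy day 3 group, among them Fasl, the ligand of Fas, at 8 to 22. Of 15 other receptors of the family, 10 were on the panel and 3 were tested. With 9 Gy day 3 EVs 0 of these were higher and 1 lower, and with 9 Gy day 7 EVs 1 was higher and 1 lower (1 higher and 0 lower on both days with TMM scaling, and 1 and 0 and then 2 and 0 with total-count scaling), where 11.2% and 11.9% of all tested genes were higher and 41.3% and 49.1% lower. The gene that was higher on day 7 was Tnfrsf11a, which encodes RANK, the receptor of RANK ligand, with log2 changes of 0.75 and 0.78 (adjusted p = 0.0684 and 0.0163, edgeR). The lower gene was Cd40, the costimulatory receptor of antigen-presenting cells, with 581 ± 267 normalized counts in the sham group, 196 ± 17.9 on day 3 after 9 Gy and 225 ± 41.8 on day 7 after 9 Gy (SD, n = 3 each) and log2 changes of -1.57 and -1.37 (adjusted p = 0.0127 and 0.0126, edgeR). With TMM scaling the changes of Cd40 were -1.14 and -0.82 (adjusted p = 0.0634 and 0.119, edgeR).

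Nfkb2, the precursor of the noncanonical NF-κB subunit, was the gene of the signaling list that fell most. Of 43 listed genes that carry or restrain signals of TNF receptors, 22 were on the panel and 18 were tested. With 9 Gy day 3 EVs 1 was higher, 4 were lower and 13 did not pass, with a median log2 change of -0.04, where 52.4% of all tested genes passed. With 9 Gy day 7 EVs 0 were higher, 6 were lower and 12 did not pass, with a median of -0.15, where 61% of all tested genes passed. With TMM scaling the counts turned to 6 higher and 2 lower on day 3 and 7 higher and 2 lower on day 7, and with total-count scaling to 12 and 1 and to 11 and 1. All tested genes shifted toward higher too. With TMM scaling they split 58 higher and 61 lower on day 3, still with more lower, and 80 and 68 on day 7. With total-count scaling they split 121 and 33 on day 3 and 143 and 31 on day 7. Nfkb2 went from 3699 ± 422 normalized counts with sham EVs to 749.96 ± 129.8 and 884 ± 179 with 9 Gy EVs of days 3 and 7 (SD, n = 3 each), log2 changes of -2.30 and -2.06 (adjusted p = 4.11e-07 and 6.6e-07, edgeR), and was lower under each scaling, by the least with total-count scaling (-1.26 and -0.97). Nfkbia, which encodes the inhibitor IκBα, changed by -0.89 and -0.94 (adjusted p = 0.000212 and 8.65e-05, edgeR), and Bcl2, a survival gene with raw counts of 1 to 4 in the 9 Gy day 3 samples, by -1.41 and -0.90 (adjusted p = 0.0202 and 0.0118, edgeR). With total-count scaling these were 0.11 and 0.17 for Nfkbia and -0.41 and 0.20 for Bcl2. The Bcl2 calls were lost with TMM scaling (-0.96 and -0.33, adjusted p = 0.112 and 0.318, edgeR). Against 2 Gy EVs, 3 genes of this list were higher and 4 lower, where 15.6% and 52% of all tested genes were. Among the higher was Traf6 (log2 change 1.45, adjusted p = 0.02, edgeR), with raw counts of 2 to 40 on day 3 after 2 Gy. Traf6 did not pass against sham EVs (0.80 and 0.27, adjusted p = 0.368 and 0.698, edgeR), and Traf4 was under the filter.

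The genes whose pattern over the 15 samples was most like that of a member were found by the root mean square difference of log2 normalized counts, each centered on its sham mean. For Tnfrsf1b they were Il1rn (0.29), Irf7 (0.30) and Cfb (0.34), whose log2 changes against sham EVs were -2.35, -2.44 and -2.51 on day 3 and -2.80, -2.36 and -2.46 on day 7 after 9 Gy. For Tnf they were Ly86 (0.17), Stat5a (0.22) and Ccl4 (0.23), and for Traf1 Cd44 (0.16), Itgb1 (0.19) and Psmb5 (0.20). Each value is a distance in log2 units over samples that share their scaling factors.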

How the data were processed

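The authors deposited raw counts of 561 genes per sample, whole numbers with no control probes and a lowest value of 1. Per the study's methods they normalized these in nSolver, with settings not given in the sources used here. How counts near background were handled is therefore unknown, and no background was subtracted. Samples were grouped by title. The members, gene lists, ratios and markers were chosen with earlier results of these data known.

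The geometric mean of 14 housekeeping genes set the scale of each sample. These genes were not stable relative to each other. Mean normalized counts with sham and 9 Gy day 7 EVs were 2991 and 5987 for Ppia and 22.2 and 69.5 for Tubb5. They were 23056 and 12586 for Rpl19 and 33679 and 21452 for Gapdh. In the 9 Gy day 3 samples Polr1b had raw counts of 1 to 3 and Tbp of 5 to 7. The part of these shifts in the changes of the members was not tested. The 269 genes averaging 20 or more counts were fitted with all 15 samples in edgeR 4.0.16 (quasi-likelihood, prior count 0.125, R 4.3.3) and adjusted by Benjamini-Hochberg, threshold 0.05. The standard error was the absolute log2 change over the square root of F. Ratios of raw counts were compared by exact permutation, but no p is given because the pairs were chosen with their changes known. Total counts per sample were 43176 to 837995, and intervals cover the spread between samples. On simulated counts with 123 genes changed by a log2 change of 1.5, the 9 Gy day 3 comparison recovered 96.7% with 1 false call of 263 genes tested, and the 9 Gy day 7 comparison 100% with 1 false call. The simulation kept the housekeeping genes unchanged, drew directions at random and gave all genes a common dispersion. It held no shared deviation of same-numbered samples. It was therefore easier than the real counts and does not show the error rate in them.

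Genes named from lists passed in the same direction on both 9 Gy days, at most 3 per list and direction. Tnfrsf11a, Fasl, Traf4 and Traf6 fall outside this rule and were named after their values were seen. For likeness, the 3 nearest of the tested genes were named for Tnf, Tnfrsf1b and Traf1. Alternatives were other scalings (TMM, total counts, median of ratios, housekeeping genes averaging 100 or more), DESeq2 1.42.0, limma voom 3.58.1, other filters, counts under 20 set to 20, fewer groups in the fit, the day labels of 2 samples, the replicate number as a block, and each sample left out. Those by day, without replicate 3 of both 9 Gy groups, with the block in the day comparisons, and with ratios averaged over same-numbered samples were chosen after seeing the data. Between days of a dose, same-numbered samples deviated together (r from 0.36 to 0.78 after 2 Gy and 0.33 to 0.72 after 9 Gy). What a number marks is not given in the labels. Between other groups r ran from -0.66 to 0.65, and its sign differed between replicate numbers in each pair of groups. No pair of samples within a group differed by as little as the sampling noise (chi-square per degree of freedom at least 2.04), and the closest pair of all, of 2 groups, stood at 1.65. Promoter windows and gene order came from RefSeq tables of GRCm38.p6, where 10 of 10 members matched. DNA windows were searched on both strands.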

Additional observations from a re-analysis of the deposited data

How the results depend on the processing

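Tnfrsf1b was lower with 9 Gy EVs, and past the threshold, under each alternative run, with log2 changes of -3.05 to -2.40 (day 3) and -3.36 to -2.43 (day 7) when each sample was left out in turn. Ltb was past it except on day 3 with the 2 samples of conflicting day label moved to day 7 (1.51, adjusted p = 0.0653, edgeR) or left out. Of 2084 values of single members under the alternatives, 1968 kept their direction and side of the threshold or were past it in neither setting (120 of these changed sign), 70 lost the threshold, 22 gained it and 24 reversed. Reversals with total-count scaling were Fas 0.95 and Traf1 0.55 (9 Gy day 3), Fas 1.05, Lta 0.19, Ltbr 0.95, Tnf 0.80, Traf1 0.52 and Traf2 0.66 (9 Gy day 7), and Fas 0.84, Ltbr 1.07, Tnf 0.72, Traf1 0.67 and Traf2 0.69 (9 Gy against 2 Gy). With TMM scaling Fas reversed to 0.51 (day 7) and 0.12 (against 2 Gy), and with median-of-ratios scaling Fas to 0.53 and 0.16, Traf1 to 0.0050 (day 7) and Tnf to 0.0053 (against 2 Gy). With counts under 20 set to 20, Ltbr turned to 0.62 (day 3), 0.51 (against 2 Gy), -0.69 (day 7 against day 3) and -0.94 (interaction), and Traf2 to -0.82 (day 7 against day 3), which follows from raising the low counts of the 9 Gy day 3 group. For the rest the cause was not tested.

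Members past the threshold, each with the share of all tested genes in the same fit, numbered 2 on day 3 after 9 Gy with no filter (22.8%), 2 with only the compared groups fitted (43.9%) and 2 to 5 with each sample left out (42% to 53.9%, 2 without 9 Gy day 3 replicate 1, 46.5%). On day 7 they numbered 8 with total-count scaling (64.7%), 3 of 4 tested with a mean of at least 100 (66.5%) and 4 to 5 with each sample left out (54.3% to 63.9%). Against 2 Gy they numbered 4 each with TMM scaling (62.8%), median-of-ratios scaling (61.7%), housekeeping genes averaging 100 or more (63.6%) and, of 4 tested, a filter at a mean of 100 (74.4%), 3 between the day 3 groups (49.4%), and 5 to 8 with each sample left out (61.3% to 68.4%). With counts under 20 set to 20 the 9 Gy days differed in 3 members (36.8%) and the interaction in 2 (23%). Lta over Tnf ranged from -0.95 to -0.59 with each sample left out, the first without 9 Gy day 3 replicate 3. Traf3 over Traf2 ranged from 0.079 to 0.80, the latter without 9 Gy day 3 replicate 2, and was 0.97 with counts under 20 set to 20.

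With the replicate number as a block in the fit of the 2 Gy groups, 1 member (Tnf) differed between days, as did 10% of all genes. With same-numbered samples averaged as a block, the ratios Tnf over Tnfrsf1b (2.09), Ltb over Tnf (2.37) and Ltbr over Ltb (-2.04) keep these means by construction. As a block over all groups it brought Traf2 past the threshold against 2 Gy (-0.45, adjusted p = 0.0378, edgeR) and changed no other call. Low totals limit the 9 Gy day 3 values of Lta, Ltbr, Traf2, Traf3 and Traf5, with 1 to 17 counts per sample.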
